A study of Mus musculus with 45 samples.

Results

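The efferocytosis and scavenger receptor genes described here are 10 genes that act in the recognition, uptake and digestion of dying cells and modified lipoproteins. They are the TAM receptor kinases Axl and Mertk, their ligands Gas6 and Pros1, the scavenger receptors Cd36, Msr1, Scarb1, Stab1 and Marco, and the lysosomal glycoprotein gene Cd68. The genes were chosen by name, and all 10 were found among the 42929 named genes that the 3 count tables of this mouse RNA-seq series share. The series held 45 C57BL/6 libraries in 7 groups. Microglia of organotypic brain slices from neonatal pups, kept for 2 weeks in culture, had received medium alone (9 libraries), TNF at 50 ng/mL (11 libraries) or GM-CSF at 20 ng/mL (9 libraries) for 24 h, and several slices were pooled per library. Adult mice of 10 to 15 weeks, labelled WT in the titles, had received intraperitoneal LPS at 1 mg/kg for 24 h. Their sorted microglia (4 LPS and 4 PBS libraries) or whole brain tissue (4 LPS and 4 untreated libraries) were profiled. The microglia controls received PBS, whereas the brain tissue controls were not treated. Microglia of slices and adult mice had been sorted as CD11b high, CD45 intermediate cells and amplified with a SMART-Seq v4 kit. Brain tissue was prepared with a TruSeq kit, so tissue, kind of control and library kit cannot be told apart.

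Efferocytosis is the clearance of apoptotic cells. A dying cell exposes phosphatidylserine, which the vitamin K-dependent proteins Gas6 and protein S (Pros1) bridge to the TAM kinases on a phagocyte. Gas6 binds Axl, Mertk and Tyro3, whereas protein S binds Mertk and Tyro3 but not Axl. Scavenger receptors belong to several structural classes, and they bind polyanionic ligands, oxidised lipoproteins, microbial surfaces and apoptotic cells. In the brain, microglia are the main phagocytes, and Mertk and Axl are known for their part in clearing cells that die there. Tissue macrophages at rest typically carry Mertk, whereas Axl is known as an inducible member of the family.

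Axl lies on chr7:25757273-25788705 (minus strand), Mertk on chr2:128698956-128802894 (plus strand), Gas6 on chr8:13465374-13494490 (minus strand) and Pros1 on chr16:62854307-62929346 (plus strand), all on the GRCm38 assembly with the GENCODE M21 annotation. The scavenger receptor genes are Cd36 on chr5:17781690-17888801, Msr1 on chr8:39581685-39642673, Scarb1 on chr5:125277087-125341094, Stab1 on chr14:31139013-31168641 and Marco on chr1:120474538-120505024, all on the minus strand. Cd68 lies on chr11:69664213-69666153 (minus strand). Exons of Gas6 share 34 bases with Tmem255b, and exons of Stab1 share 112 bases with Nt5dc2. Both partners lie on the opposite strand, and strand use in counting is not given in the sources used here, so a small part of these counts could belong to the partner.

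Promoter sequences of RefSeq (GRCm38.p6, 250 bases before to 50 bases after a transcription start) were matched for 8 of the 10 genes, all but Msr1 and Scarb1. Those of Axl, Gas6, Pros1 and Marco are shown because the treatments moved these genes in different ways. Each is given 5′ to 3′ on the strand of the gene, with motif matches in capitals.
Axl (chr7:25788684-25788983, minus strand): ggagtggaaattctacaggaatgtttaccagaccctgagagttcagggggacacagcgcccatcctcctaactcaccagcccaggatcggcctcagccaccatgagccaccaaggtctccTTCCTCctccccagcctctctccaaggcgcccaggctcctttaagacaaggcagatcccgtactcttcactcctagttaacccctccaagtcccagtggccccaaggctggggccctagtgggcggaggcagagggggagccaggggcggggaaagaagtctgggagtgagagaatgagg
Gas6 (chr8:13494486-13494785, minus strand): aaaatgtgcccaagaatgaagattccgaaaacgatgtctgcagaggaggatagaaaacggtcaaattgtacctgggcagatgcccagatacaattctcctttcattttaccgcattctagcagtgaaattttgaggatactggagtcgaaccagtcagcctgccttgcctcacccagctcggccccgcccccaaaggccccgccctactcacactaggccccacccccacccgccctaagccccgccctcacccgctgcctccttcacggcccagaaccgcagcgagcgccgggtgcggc
Pros1 (chr16:62854057-62854356, plus strand): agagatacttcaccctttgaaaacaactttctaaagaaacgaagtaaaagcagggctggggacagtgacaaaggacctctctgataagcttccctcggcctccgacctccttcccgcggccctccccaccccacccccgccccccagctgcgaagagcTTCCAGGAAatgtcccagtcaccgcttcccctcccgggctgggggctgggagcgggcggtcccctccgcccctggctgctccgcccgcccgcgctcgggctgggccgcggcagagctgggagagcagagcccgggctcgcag
Marco (chr1:120504975-120505274, minus strand): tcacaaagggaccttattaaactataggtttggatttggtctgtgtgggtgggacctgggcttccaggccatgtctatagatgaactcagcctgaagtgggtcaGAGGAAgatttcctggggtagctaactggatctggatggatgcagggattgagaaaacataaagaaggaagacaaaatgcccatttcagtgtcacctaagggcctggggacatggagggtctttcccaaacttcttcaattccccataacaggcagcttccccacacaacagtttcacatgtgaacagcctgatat
The motifs were searched on both strands, with the responses of the genes already known. The PU.1 core GAGGAA, bound by the myeloid factor PU.1, occurred in the windows of Axl, Stab1, Marco and Cd68 and in 28.3% of all 32851 promoter windows. In Axl it was read on the opposite strand, as TTCCTC, and its first printed base lay 130 bases before the start. In Marco it lay on the strand of the gene, 146 bases before the start. The GAS motif TTCNNNGAA, bound by STAT dimers, occurred in Pros1 as TTCCAGGAA, 92 bases before the start, in none of the other 7 windows, and in 8.3% of all windows. The AP-1 motif TGANTCA occurred at 2 places in Cd68 and in 7.81% of all windows. The interferon response element GAAANNGAA (8.56% of all windows), the E-box CACGTG (7.15%) and the NF-kB motif (8.46%) had no match in the 8 windows. Gas6, Mertk and Cd36 held no match to any motif searched. A match describes letters in a window and not binding.

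The smallest and largest libraries held 5973364 and 9165485 counts among slice microglia, 11391564 and 14216005 among adult microglia and 8199863 and 10368578 among brain tissue. Levels are CPM, the counts of a gene relative to the library total, scaled by the trimmed mean of M values within each table. The tables were scaled separately, so levels set across them are descriptions. All 10 microglia markers were above 1 CPM on average in every group, and their sum was lower after each treatment of microglia: 61690 to 68770 CPM in PBS and 40330 to 48430 in LPS microglia, against 21880 to 31280 in medium, 10400 to 13360 in TNF and 15670 to 18050 in GM-CSF slices. In slices, monocyte markers summed to at most 9.471 CPM in a library, and neutrophil markers to at most 13.98 CPM in medium, 113.3 with TNF and 42.8 with GM-CSF, with medians of 1.59, 7.87 and 9.33 CPM. Of the 2 neutrophil markers tested, S100a8 rose with TNF (2.18 ± 0.67, log2, SE; adjusted p = 0.00944, edgeR), and the part of such cells in the TNF and GM-CSF results was not tested. In bulk libraries, fewer cells of a type and less RNA per cell cannot be told apart. Among LPS microglia, replicate 2 had the lowest level of Axl, Mertk, Msr1, Stab1, Marco and Cd68 and the highest of Gas6 and Pros1. The LPS results are also given without this library. A gene was called changed at an adjusted p under 0.05 (edgeR quasi-likelihood test, Benjamini-Hochberg adjustment over all genes tested) together with a fold change over 1.5, and "rose" and "fell" are used of called genes. Per the study's methods the adult libraries came from independent mice and the slice libraries from pools of separately treated slices. The sources do not tie each pool to its own animals, so p-values in slices measure only the spread between pools. The paper pooled the slice data from several independent experiments, and the main slice fit held no term for experiment.

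Per kilobase of exon, Cd68 had the highest level of the 10 genes in every microglia group. Exon length was the union of all annotated exons of a gene. This can be longer than a single transcript, so the order between genes depends on it. In medium slices the level of Cd68 was 2424 ± 256 CPM per kilobase (SD, n = 9), followed by Gas6 at 275 ± 33.0, Axl at 192 ± 20.0, Pros1 at 160 ± 17.6 and Mertk at 81.5 ± 15.5. Gas6 lay above Axl in all medium libraries. The ranges of Axl and Pros1 overlapped, as did those of each neighbouring pair from Mertk through Cd36, Msr1, Scarb1 and Stab1 down to Marco. In PBS microglia the order was different. Cd68 was at 718 ± 33.0 CPM per kilobase (SD, n = 4), then came Mertk at 212 ± 16.7 and Pros1 at 208 ± 18.5, which overlapped, then Gas6 at 99.9 ± 5.65 and Stab1 at 65.4 ± 1.12. Axl reached 3.78 ± 1.55 CPM per kilobase there, and Msr1 and Cd36 stayed at 0.410 ± 0.116 and 0.123 ± 0.0204. In untreated brain tissue Gas6 led at 38.3 ± 1.33 CPM per kilobase (SD, n = 4), ahead of Axl at 9.99 ± 0.523, Mertk at 8.03 ± 1.06 and Cd68 at 5.30 ± 0.189, and Axl and Mertk overlapped.

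The genes also differed in how much of their level brain tissue kept relative to sorted microglia. The mean CPM of Cd68 in untreated brain was 0.739% of that in PBS microglia. The median share over the 10 microglia markers was 0.518% (range 0.294% to 4.86%). This share was 1.62% for Pros1, 3.16% for Stab1, 3.78% for Mertk and 4.83% for Msr1, all under the highest marker, Sall1 (4.86%). These genes and Cd68 lay above the next highest marker, Olfml3 (0.648%), and the share of Msr1 rests on 5 counts in untreated brain. It was 38.3% for Gas6 and 41.5% for Scarb1, and it was 265% for both Axl and Cd36, which were higher in tissue than in sorted cells. For Cd36 the share rests on 46 counts in untreated brain and 24 counts in PBS microglia. These shares compare tables made with different kits and carry no test.

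**Figure D1:**
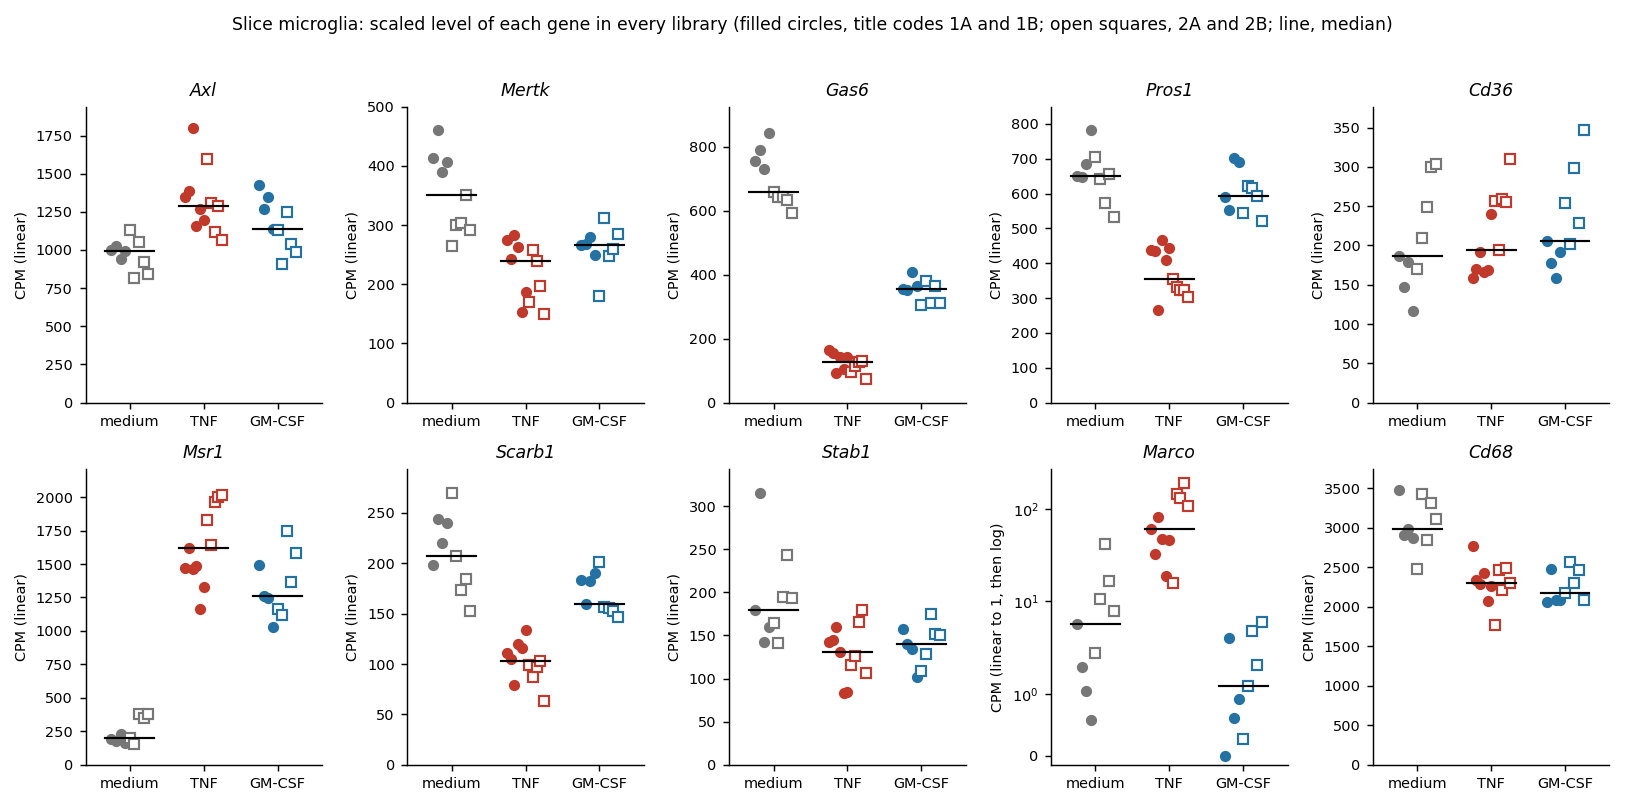
Level of each of the 10 genes (CPM, vertical axis) in every slice library of the medium, TNF and GM-CSF groups (horizontal axis). Filled circles are libraries with title codes 1A and 1B, open squares those with 2A and 2B, and lines are medians. All axes are linear except that of Marco, which is linear to 1 CPM and logarithmic above. Gas6 separates the 3 groups without overlap, and the lowest TNF and GM-CSF libraries for Msr1 (1167 and 1031 CPM) lie above the highest medium library (382 CPM).

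TNF changed 6 of the 10 genes in slice microglia. Msr1 and Marco rose, and Gas6, Scarb1, Pros1 and Mertk fell, so the ligands, a receptor kinase and a lipoprotein receptor were lower while both class A scavenger receptors were higher. Over all 11313 genes of the fit the called share was 20.8%, with 9.1% higher and 11.7% lower. The median log2 fold change was -0.48 over the 10 genes and -0.03 over all genes tested. The slice titles carry the codes 1A, 1B, 2A and 2B, whose meaning the labels do not give, and comparisons are also given within the 1A and 1B libraries and within the 2A and 2B libraries.

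The TAM receptors moved apart. Mertk, a receptor for both Gas6 and protein S, was at 265, 351 and 461 CPM in medium (lowest, median and highest of 9) and at 150, 239 and 284 CPM with TNF. It fell by 0.68 ± 0.116 (log2, SE; adjusted p = 9.77e-06, edgeR), and 9 of 11 TNF libraries lay below all medium libraries. The change of Mertk was -0.83 within codes 1A and 1B and -0.58 within 2A and 2B, and the latter was under the 1.5-fold limit. Axl, which binds Gas6, was at 813, 990 and 1129 CPM in medium and at 1065, 1288 and 1797 CPM with TNF. Its log2 difference of 0.45 ± 0.0863 (adjusted p = 6.41e-05, edgeR) is 1.36-fold and was not called, although 9 of 11 TNF libraries lay above all medium libraries.

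Gas6 had the largest decrease of the 10 genes. It was at 593, 660 and 843 CPM in medium and at 75.2, 127 and 163 CPM with TNF (lowest, median and highest). The 2 groups did not overlap, and Gas6 fell by 2.52 ± 0.105 (log2, SE; adjusted p = 3.73e-20, edgeR), with -2.53 and -2.56 within the title codes. Pros1, the protein S gene, was at 534, 651 and 783 CPM in medium and at 264, 354 and 467 CPM with TNF. All 11 TNF libraries were again below the medium libraries, and the decrease was smaller, -0.81 ± 0.0874 (adjusted p = 1.52e-09, edgeR). Because Gas6 fell more than Pros1, the ratio of their levels per kilobase went from 1.72 ± 0.149 in medium (SD, n = 9) to 0.529 ± 0.0854 with TNF (SD, n = 11), and the highest TNF ratio (0.640) was below the lowest medium ratio (1.501).

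Among the scavenger receptors, Msr1 (class A, SR-A1) was at 152, 199 and 382 CPM in medium and at 1167, 1617 and 2012 CPM with TNF. It rose 6.61-fold, by 2.72 ± 0.168 on the log2 scale (adjusted p = 1.15e-14, edgeR), in all 11 libraries. Marco, another class A receptor known for binding bacteria and particles, was at 0.579, 5.62 and 41.8 CPM in medium and at 15.7, 60.9 and 192 CPM with TNF. The groups overlapped, with 8 of 11 TNF libraries above all medium libraries, and Marco rose 8.08-fold with a wide error, 3.02 ± 0.634 (adjusted p = 0.000324, edgeR). Its change was 4.38 within codes 1A and 1B, 2.87 within 2A and 2B and 3.91 without 2B.

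Scarb1, the class B receptor for high-density lipoprotein, was at 152, 207 and 269 CPM in medium and at 63.0, 103 and 134 CPM with TNF. All 11 TNF libraries lay below the medium libraries, and Scarb1 fell by 1.051 ± 0.105 (adjusted p = 2.54e-10, edgeR). Cd36, the other class B receptor of the group, showed a log2 difference of 0.06 ± 0.161 (95% interval -0.26 to 0.37, adjusted p = 0.809), and its ranges of 117 to 304 CPM in medium and 158 to 310 CPM with TNF covered each other. Stab1, a class H receptor that also binds phosphatidylserine, differed by -0.56 ± 0.138 (adjusted p = 0.00132), just under the 1.5-fold limit. It was called with scaling by total counts (-0.63, adjusted p = 0.000327) and within codes 1A and 1B (-0.68, adjusted p = 0.0311), and within 2A and 2B it was -0.44 (adjusted p = 0.0571). Cd68, a marker of endosomes and lysosomes, went from 2476, 2986 and 3482 CPM to 1767, 2303 and 2773 CPM, a log2 difference of -0.40 ± 0.0671 (adjusted p = 8.03e-06) that was not called.

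Title code 2B stood out for several scavenger receptors. In medium, Msr1 averaged 372 CPM in the 3 libraries with code 2B (353 to 382 CPM) against 200, 161 and 175 CPM under 1A, 1B and 2A. Marco was at 41.8, 16.5 and 7.94 CPM in the 2B libraries and at 0.579 to 10.6 CPM in the other 6, so the ranges overlapped. Cd36 averaged 284 CPM under 2B against 171, 117 and 190 CPM under 1A, 1B and 2A. Scarb1 went the other way, at 170 CPM on average under 2B against 221, 240 and 238 CPM under 1A, 1B and 2A. The sum of 7 border macrophage markers (such as F13a1 and Ms4a7) moved with Msr1, Marco and Cd36 and against Scarb1. It was at 851 to 1111 CPM in the 2B medium libraries and 401 to 671 CPM in the other medium libraries. Its part in the result was not tested. Over the treatment groups this sum was 401 to 1111 CPM in medium, 446 to 1273 with TNF and 348 to 997 with GM-CSF. Its members moved apart, since Mrc1 (-1.70) and Lyve1 (-3.15) fell with TNF and Ms4a7 (-1.79) fell with GM-CSF, while the other 4 and 5 of the 6 tested were not called (edgeR).

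GM-CSF changed 3 of the 10 genes. Msr1 rose, and Gas6 and Marco fell. Among all genes tested 10.8% were called, 4.84% higher and 5.96% lower, and the median was -0.37 over the 10 genes and -0.04 over all. Of the calls 44.8% were higher, and 63.9% with scaling by total counts. This comparison shares its 9 medium libraries with the TNF comparison, so the values of both stand side by side and are not independent.

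Msr1 was at 1031, 1259 and 1749 CPM with GM-CSF (lowest, median and highest), above all medium libraries in 9 of 9. It rose 5.40-fold, by 2.43 ± 0.170 (log2, SE; adjusted p = 1.49e-12, edgeR), and by 2.73 and 2.26 within the title codes. Gas6 was at 306, 354 and 410 CPM, below all medium libraries, and fell by 1.00 ± 0.108 (adjusted p = 5.85e-09, edgeR). Marco was at 0, 1.21 and 5.97 CPM, and only 2 of 9 libraries lay below every medium library. Its decrease of -2.17 ± 0.745 (adjusted p = 0.0315, edgeR) was not called within codes 1A and 1B (-0.72, adjusted p = 0.631), within 2A and 2B (-2.48, adjusted p = 0.068) or without 2B (-1.64, adjusted p = 0.182), nor without the filter on low counts (-2.15, adjusted p = 0.0634). With the title code as a block it was called (-1.90, adjusted p = 0.0149).

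The other genes were not called with GM-CSF over all title codes. Axl differed by 0.27 ± 0.0899 (adjusted p = 0.0254, edgeR), with 6 of 9 libraries above the medium libraries, and Mertk by -0.44 ± 0.122 (adjusted p = 0.0065). Within codes 1A and 1B the difference of Mertk was -0.65 and called (adjusted p = 0.00326), and within 2A and 2B it was -0.22 (adjusted p = 0.404). Pros1 was at 522, 593 and 701 CPM, within most of the medium range, a log2 difference of -0.11 ± 0.0917 (95% interval -0.29 to 0.07, adjusted p = 0.412). Scarb1 (-0.30), Stab1 (-0.47) and Cd68 (-0.43) had lower means with adjusted p of 0.0377, 0.0138 and 1.16e-05 (edgeR), all under the 1.5-fold limit. The Gas6 to Pros1 ratio per kilobase was 0.934 ± 0.0684 (SD, n = 9), between the medium and TNF ratios and overlapping neither.

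The direct comparison of TNF with GM-CSF tested where the cytokines differed, at the single dose used for each. In it 4 of the 10 genes were called, with 16.2% of all genes called, 8.25% higher with TNF and 7.96% lower. Marco was higher with TNF by 5.19 ± 0.743 (log2, SE; adjusted p = 2.27e-06, edgeR), and the lowest TNF library (15.7 CPM) exceeded the highest GM-CSF library (5.97 CPM). Gas6 was lower with TNF by -1.52 ± 0.103 (adjusted p = 2.11e-14), Scarb1 by -0.75 ± 0.105 (adjusted p = 4.63e-07) and Pros1 by -0.70 ± 0.0874 (adjusted p = 5e-08), and for all 3 genes all 11 TNF libraries lay below all GM-CSF libraries. Msr1 differed by 0.29 ± 0.154 (95% interval -0.01 to 0.59, adjusted p = 0.161). Axl differed by 0.18 (95% interval 0.01 to 0.35) and Mertk by -0.24 (95% interval -0.47 to -0.02), each with an adjusted p of 0.114 (edgeR). Scaling by total counts in place of the trimmed mean moved the median of all genes in this comparison from -0.02 to -0.19, and 31.4% of the calls were then higher with TNF, against 50.9%.

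**Figure D2:**
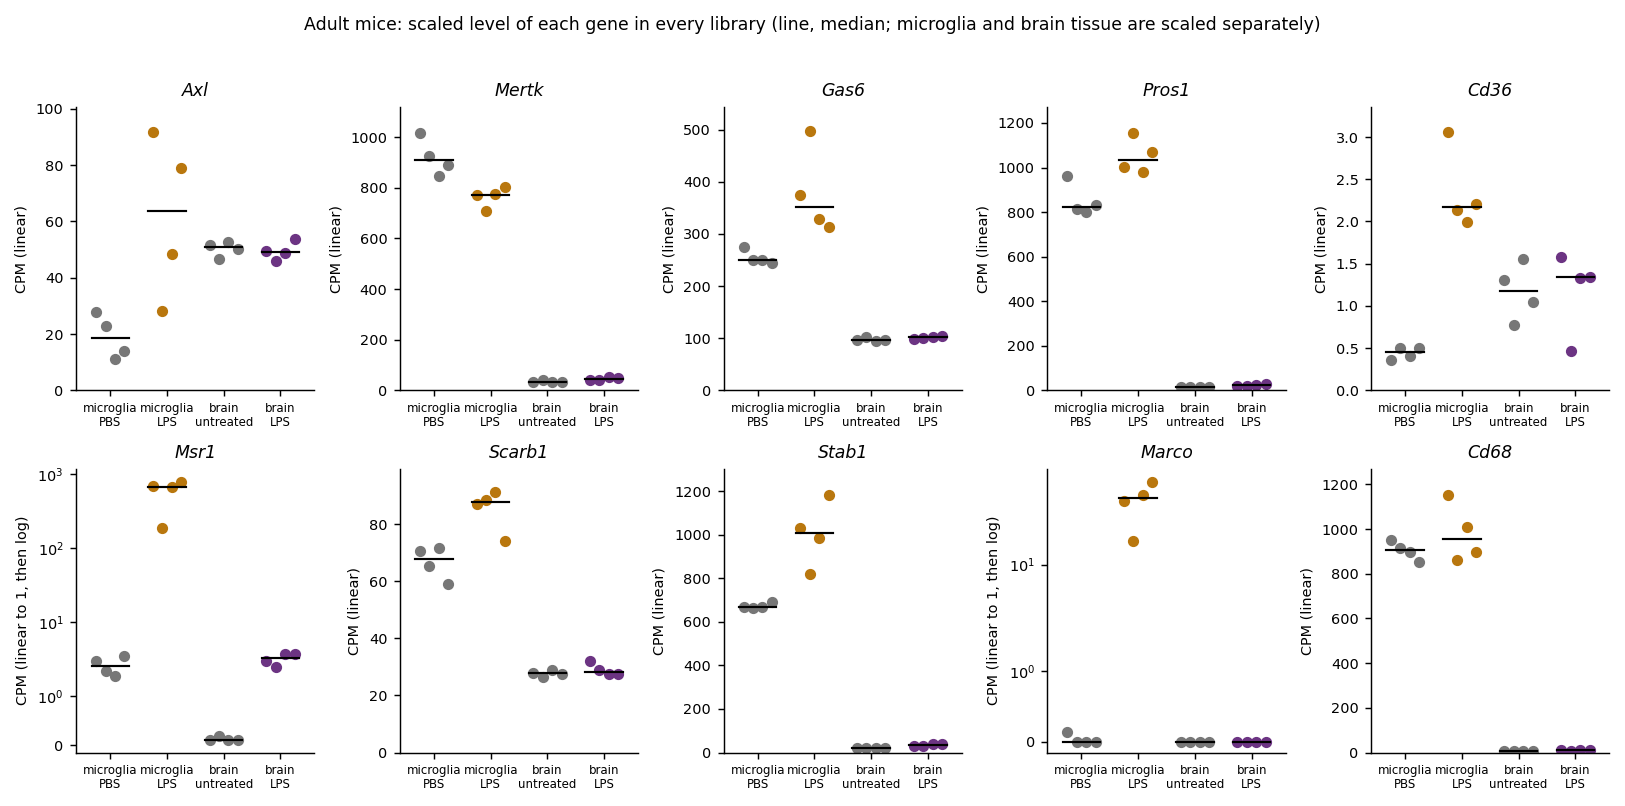
Level of each of the 10 genes (CPM, vertical axis) in every library of adult microglia (PBS, LPS) and brain tissue (untreated, LPS), with lines at medians. Axes are linear except those of Msr1 and Marco, which are linear to 1 CPM and logarithmic above, and the 2 tables are scaled separately. Msr1 spans from 0.10 CPM in untreated brain to 778 CPM in LPS microglia, and Marco was at 0 in all 8 brain libraries.

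LPS in vivo changed 4 of the 10 genes in adult microglia, and all 4 rose: Axl, Cd36, Msr1 and Marco. Among the 12987 genes of that fit the called share was 27.4%, with 14.4% higher and 13% lower. The median was 0.57 over the 10 genes and 0.01 over all. None of the 10 fell past the fold limit.

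Axl was at 27.9, 22.9, 11.03 and 14.1 CPM in the 4 PBS libraries and at 91.9, 28.3, 48.6 and 79.0 CPM in the 4 LPS libraries. All LPS libraries were above all PBS libraries, although replicate 2 of LPS (28.3 CPM) exceeded the highest PBS library (27.9 CPM) only slightly. Axl rose 3.26-fold, by 1.70 ± 0.447 (log2, SE; adjusted p = 0.0156, edgeR), and by 1.94 without that library (adjusted p = 0.00562). Mertk was at 1017, 926, 847 and 890 CPM with PBS and 771, 707, 773 and 804 CPM with LPS. The groups did not overlap, but the difference of -0.27 ± 0.0741 (adjusted p = 0.00948) was 1.204-fold and not called. The Axl to Mertk ratio per kilobase was 0.0175 ± 0.00596 in PBS and 0.0690 ± 0.0305 in LPS microglia (SD, n = 4 each), far under the ratio of 2.44 ± 0.561 in medium slices (SD, n = 9).

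Both ligands were higher with LPS in all 4 libraries without passing the fold limit. Gas6 was at 276, 250, 249 and 244 CPM with PBS and at 374, 498, 328 and 312 CPM with LPS, a log2 difference of 0.57 ± 0.131 (adjusted p = 0.00398, edgeR). Replicate 2 of LPS was the highest, and without it the difference was 0.41 (adjusted p = 0.000384). Without LPS replicate 3 or 4 or PBS replicate 1 it was 0.64, 0.65 or 0.61 and past the fold limit. Pros1 was at 964, 812, 800 and 830 CPM with PBS and at 1001, 1155, 980 and 1068 CPM with LPS, a log2 difference of 0.30 ± 0.0811 (adjusted p = 0.00782).

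Msr1 had the largest change that the counts could estimate in these cells. It was at 2.94, 2.16, 1.85 and 3.46 CPM with PBS and at 689, 187, 655 and 778 CPM with LPS. It rose by 7.78 ± 0.60 (log2, SE; adjusted p = 4.17e-05, edgeR), or 220-fold, and by 8.07 without LPS replicate 2, the lowest LPS library. Marco had 2, 0, 0 and 0 counts in the PBS libraries and 545, 195, 586 and 813 counts in the LPS libraries. The ratio of the summed counts per total was 1107, with a 95% counting interval of 306 to 9151 that covers counting error only. Marco passed the test in that comparison (adjusted p = 2.63e-05, edgeR), while its fitted fold change depends on the prior count. Cd36 was at 5, 7, 5 and 7 counts in the PBS libraries and 42, 25, 26 and 30 counts in the LPS libraries. It rose 5.23-fold, by 2.39 ± 0.311 (adjusted p = 6.24e-05, edgeR), but its highest level was 3.06 CPM, against 117 CPM or more in every slice library.

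Stab1 was at 669, 664, 669 and 690 CPM with PBS and at 1033, 818, 985 and 1182 CPM with LPS. Its log2 difference of 0.58 ± 0.0962 (adjusted p = 0.000365, edgeR) was 1.49-fold, just under the limit, and without LPS replicate 2 it was 0.67 and called (adjusted p = 3.52e-06). It was also called, at 0.59, without LPS replicate 3 and without PBS replicate 4. Scarb1 was at 59.1 to 71.6 CPM with PBS and 74.0 to 91.3 CPM with LPS, a log2 difference of 0.35 ± 0.0866 (adjusted p = 0.00477). Cd68 was at 850 to 950 CPM with PBS and 862 to 1151 CPM with LPS. Its interval ran from -0.06 to 0.30 (log2, adjusted p = 0.291), and 2 of 4 LPS libraries lay above the PBS libraries. Without LPS replicate 2, the log2 fold changes were -0.23 for Mertk, 0.26 for Pros1, 2.43 for Cd36, 0.34 for Scarb1 and 0.18 for Cd68, all on the same side of the call limit as with it, and Marco again passed the test (adjusted p = 7e-10, edgeR).

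Markers of other cell types also moved in these sorted cells. Border macrophage markers summed to 10.2 to 15.9 CPM with PBS and 27.9 to 44.7 CPM with LPS, and all 3 of 7 that could be tested rose. Neutrophil markers summed to 40.6 to 83.5 CPM with PBS and 1.61 to 8.31 CPM with LPS, and 5 of 6 fell. Monocyte markers summed to 11.1 to 15.5 CPM with PBS and 4.53 to 7.07 CPM with LPS. Endothelial markers summed to 40.4 to 49.5 CPM with PBS and 14.6 to 17.0 CPM with LPS, where Pecam1 and Kdr fell, and oligodendrocyte markers summed to 75.7 to 88.8 CPM and 59.1 to 67.7 CPM. The border macrophage sum moved in the direction of the called genes Axl, Msr1, Marco and Cd36, and its part in these results was not tested.

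In whole brain tissue LPS changed 4 of the 9 genes tested, and all 4 rose: Pros1, Msr1, Stab1 and Cd68. Among the 15083 genes of that fit the called share was 3.18%, with 2.63% higher and 0.55% lower. The median was 0.39 over the 9 genes and 0.00 over all genes. Marco could not be tested, with 0 counts in all 8 libraries, which allows levels of up to 0.289 to 0.366 CPM per library for a limit of 3 counts.

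Pros1 was at 13.5, 15.5, 13.5 and 12.8 CPM in untreated tissue and at 20.9, 21.2, 25.7 and 26.6 CPM with LPS. The groups did not overlap, and Pros1 rose 1.71-fold, by 0.77 ± 0.102 (log2, SE; adjusted p = 0.000145, edgeR). Gas6 was at 94.8 to 102 CPM in untreated tissue and at 98.5 to 104 CPM with LPS, a difference of 0.06 ± 0.044 (95% interval -0.03 to 0.14, adjusted p = 0.498). The Gas6 to Pros1 ratio per kilobase was 11.4 ± 0.563 in untreated and 6.95 ± 0.742 in LPS tissue (SD, n = 4 each), and both were above the ratio in every microglia library.

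Axl stayed within 46.6 to 52.7 CPM in untreated and 46.0 to 53.8 CPM in LPS tissue, a log2 difference of -0.02 ± 0.0624 (95% interval -0.14 to 0.10, adjusted p = 0.892, edgeR). Mertk was at 32.6, 41.5, 33.9 and 31.2 CPM in untreated tissue and 41.5, 41.7, 50.9 and 48.8 CPM with LPS. Its difference of 0.39 ± 0.0952 (adjusted p = 0.0182) was 1.31-fold and not called.

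Msr1 had 1, 2, 1 and 1 counts in untreated tissue and 28, 21, 30 and 33 counts with LPS. It rose by 4.52 ± 0.371 (log2, SE; adjusted p = 1.24e-06, edgeR), and the ratio of summed counts per total was 25.5 with a 95% counting interval of 10.6 to 79.9. Stab1 was at 22.6, 20.6, 21.2 and 20.5 CPM in untreated tissue and at 31.3, 31.6, 38.8 and 38.5 CPM with LPS, and rose 1.65-fold (0.72 ± 0.0862, adjusted p = 6.1e-05). Cd68 was at 6.83, 6.32, 6.73 and 6.79 CPM in untreated tissue and at 10.9, 8.13, 12.6 and 10.0 CPM with LPS, and rose 1.56-fold (0.64 ± 0.139, adjusted p = 0.00744). Without LPS replicate 3 the change of Cd68 was 0.54 and under the fold limit. Cd36 (4 to 15 counts per library) and Scarb1 were not called, with log2 differences of 0.03 ± 0.359 and 0.07 ± 0.0718.

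Markers of other cells moved in the same tissue. Border macrophage markers summed to 5.73 to 7.97 CPM in untreated and 9.67 to 14.03 CPM in LPS tissue, and 2 of the 4 tested rose, while Mrc1 was listed at 0 in all 8 libraries. Mrc1 averaged 10.2 CPM in PBS microglia, and whether the brain table counted this gene in the same way is not known. Endothelial markers summed to 268 to 283 CPM and 345 to 395 CPM, with 3 of 8 higher. Neutrophil markers summed to 0.503 to 1.55 CPM and 3.17 to 7.98 CPM. The 10 microglia markers summed to 316 to 363 CPM in untreated tissue and to 408, 413, 247 and 429 CPM in LPS replicates 1 to 4, so replicate 3 stood below all others, and 3 of the 10 fell while none rose. The part of these cells in the changes of Pros1, Msr1, Stab1 and Cd68 was not tested.

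**Figure D3:**
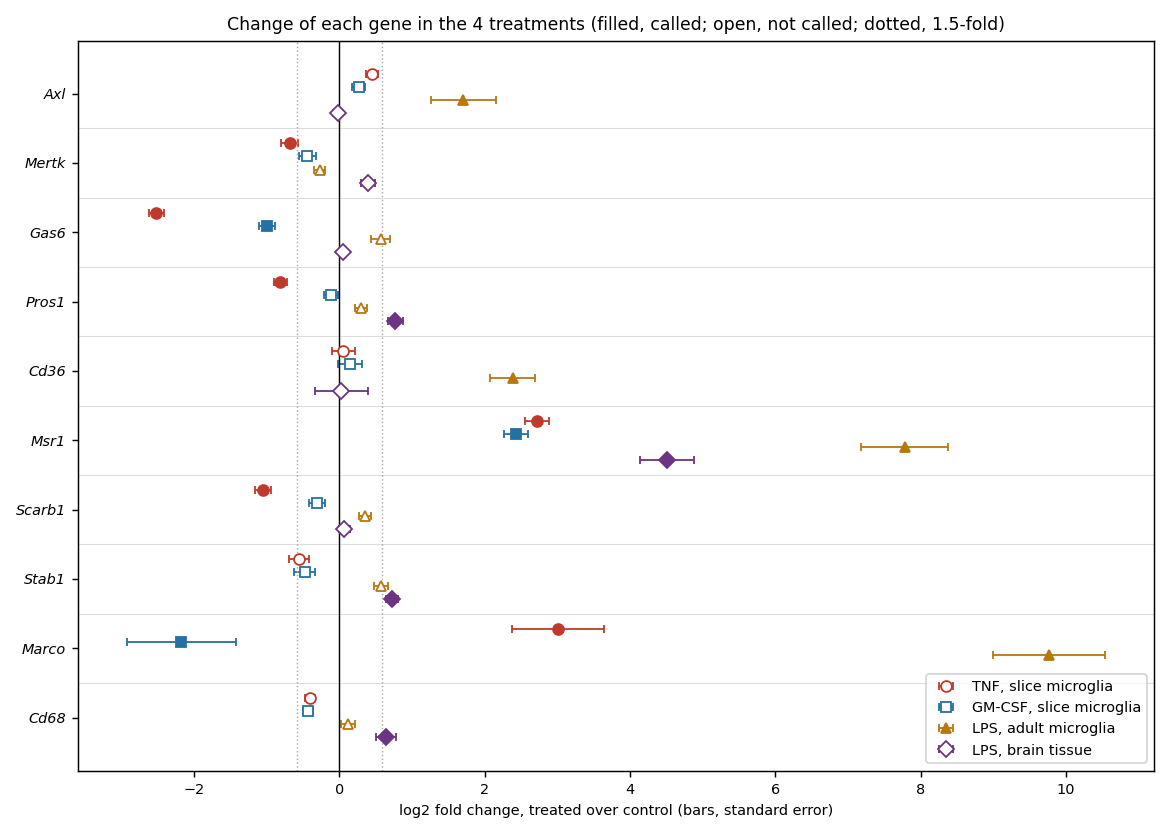
Log2 fold change (horizontal axis, bars are standard errors) of each of the 10 genes (vertical axis) after TNF or GM-CSF in slice microglia and after LPS in adult microglia or brain tissue. Filled symbols are called, open symbols are not, and dotted lines mark 1.5-fold. Msr1 lies to the right in all 4 comparisons, Gas6 lies at -2.52 after TNF and 0.57 after LPS in adult microglia, Marco has no point for brain tissue, and its LPS point depends on the prior count.

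The LPS effect was compared between adult microglia and brain tissue in 1 fit over both tables. A difference of effects was called for 3 of the 9 genes tested, against 19.7% of 16676 genes. Axl had a larger change in microglia (difference 1.71 ± 0.461, log2, SE; adjusted p = 0.0118, edgeR), as had Cd36 (2.35 ± 0.476, adjusted p = 0.000724). Mertk had a lower change in microglia (-0.67 ± 0.126, adjusted p = 0.000375), with a change of -0.27 in sorted cells and 0.39 in tissue. Gas6 (0.51, adjusted p = 0.0136), Pros1 (-0.48, adjusted p = 0.0104) and Cd68 (-0.53, adjusted p = 0.0177) differed under the 1.5-fold limit. Gas6 passed the limit without microglia LPS replicate 4 (0.59), and Cd68 passed it without microglia LPS replicate 1 (-0.61) or brain LPS replicate 2 (-0.62). For Msr1 the difference was 3.23 ± 3.28 (adjusted p = 0.528, edgeR), and it was 2.96 to 3.52 when single libraries were left out. Without LPS microglia replicate 2 it was past the threshold (3.52, adjusted p = 0.00517), and with DESeq2, a test added after the data were seen, it was 3.09 (adjusted p = 0.00192). Stab1 differed by -0.15 ± 0.137 (95% interval -0.42 to 0.12).

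**Figure D4:**
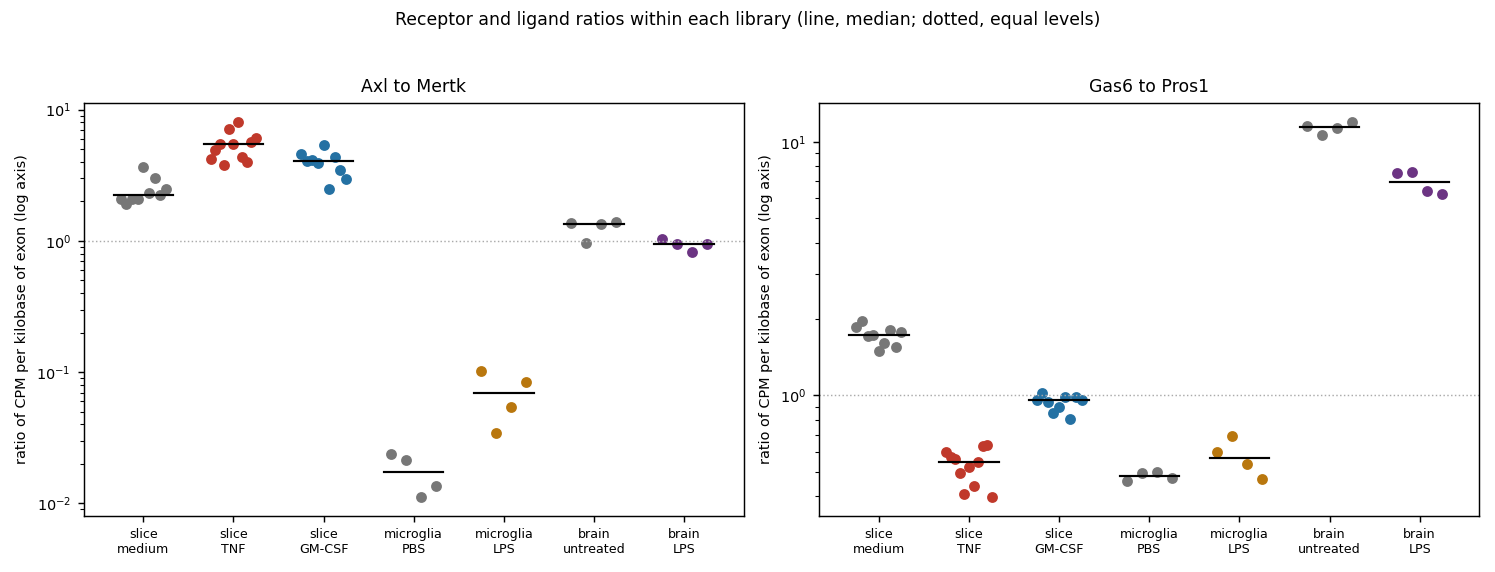
Ratio of Axl to Mertk (left) and of Gas6 to Pros1 (right), from CPM per kilobase of exon on a logarithmic vertical axis, in every library of the 7 groups (horizontal axis). Lines are medians and the dotted line marks equal levels. Axl exceeded Mertk in all slice libraries and was at most 0.103 of Mertk in every adult microglia library, and the Gas6 to Pros1 ratio fell into non-overlapping ranges in medium, GM-CSF and TNF slices.

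Across the 29 slice libraries, the genes whose log2 levels were most like those of each of the 10 were found by Pearson correlation over all genes tested. These values are descriptions, because the libraries share treatment groups. Gas6 was most like Slco2b1 (0.977), P2ry13 (0.975) and Itgb5 (0.973), all genes with high levels in microglia. Pros1 was most like Gusb (0.975) and then Scarb1 (0.936), and Scarb1 was in turn most like Pros1. Msr1 was most like Bcl2a1a (0.98) and Bcl2a1d (0.965), near-identical copies whose counts are uncertain, and the chemokine gene Ccl2 (0.963). Marco was most like Aoah (0.944), which encodes an enzyme that inactivates LPS. Mertk and Stab1 shared Lrp1 and Plxnb2 among their closest 3 genes (Lrp1 at 0.876 and 0.833). The closest values were lower for Cd68 (Creg1, 0.903), Cd36 (Spp1, 0.842) and Axl (Cox18, 0.809).

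Other genes of the same processes were taken from 5 lists, chosen with earlier results of these data known. The first, TAM partners (Tyro3, Lgals3, Tulp1, Tub, Adam10 and Adam17), had 3 genes tested in each microglia comparison and none called against control. Over all genes 20.8% were called with TNF, 10.8% with GM-CSF and 27.4% with LPS in adult microglia. With 3 genes tested the count cannot be set apart from these shares. Between the cytokines 2 of the 3 were called, higher with TNF, against 16.2% of all genes. Adam17, which sheds receptors from the cell surface, differed by 0.44 with TNF and -0.35 with GM-CSF, and was higher with TNF than with GM-CSF (0.79 ± 0.083, adjusted p = 1.02e-09, edgeR). Tyro3, the remaining TAM receptor, passed the filter on low counts in brain tissue alone, where it differed by -0.28 ± 0.0979 with LPS (adjusted p = 0.118).

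Of 17 other phosphatidylserine receptors and bridging molecules, 12 could be tested in slices. With TNF 2 rose and 6 fell (median -0.62), with GM-CSF 1 rose and 5 fell (median -0.27), and in adult microglia with LPS 1 rose and 3 fell of 11 tested (median -0.28). In brain tissue none of 12 was called (edgeR). Over all genes the called shares were 20.8%, 10.8%, 27.4% and 3.18% in the same order. Cd300lf, an immunoreceptor that binds phosphatidylserine, rose in the 3 microglia comparisons, by 2.54 with TNF, 2.09 with GM-CSF and 4.01 with LPS. Its level was 18.1 ± 4.502 CPM in medium (SD, n = 9), 105 ± 25.6 CPM with TNF (n = 11) and 76.9 ± 12.7 CPM with GM-CSF (n = 9). Itgb5, part of an integrin that binds the bridging protein Mfge8, fell by 1.47 ± 0.0804 with TNF and by 0.61 ± 0.0842 with GM-CSF. Lrp1, an engulfment receptor, fell by 1.46 ± 0.197 and by 0.84 ± 0.206. Trem2, a lipid-sensing microglial receptor, fell by 1.16 with TNF, by 0.89 with GM-CSF and by 0.97 with LPS in adult microglia.

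Of 13 other scavenger receptors, TNF raised 4 and lowered 1 of 10 tested, GM-CSF lowered 1 of 10, LPS raised 3 and lowered 1 of 8 in adult microglia, and LPS raised 2 of 9 in brain tissue. Their medians were 0.36, 0.01, 0.42 and 0.11, and the shares called over all genes were 20.8%, 10.8%, 27.4% and 3.18%, so the GM-CSF count is near that of all genes. Cxcl16, a membrane-bound chemokine that also takes up oxidised lipoprotein, rose by 1.87 ± 0.069 with TNF, by 1.93 ± 0.288 with LPS in adult microglia and by 1.52 ± 0.206 in brain tissue. It was at 254 ± 32.9 CPM in medium and 927 ± 52.2 CPM with TNF (SD, n = 9 and 11), and at 178 ± 19.9 CPM with GM-CSF (SD, n = 9). Olr1, a receptor for oxidised lipoprotein, rose by 3.49 ± 0.407 with TNF, from 4.92 ± 3.93 to 55.2 ± 16.4 CPM, and was at 7.05 ± 3.46 CPM with GM-CSF. Cd163, a haemoglobin scavenger receptor of border macrophages, rose by 0.89 ± 0.25 in brain tissue.

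The engulfment machinery and its restraint by Cd47 and Sirpa gave 2 higher and 4 lower with TNF, 1 higher and 2 lower with GM-CSF, and 1 higher and 2 lower with LPS in adult microglia, of 12 tested each. All genes gave 20.8%, 10.8% and 27.4% called, so the LPS count is close to that of all genes. Elmo1, which couples engulfment receptors to Rac, fell in these 3 comparisons, with log2 fold changes of -1.051, -0.64 and -1.08. Xkr8, a phospholipid scramblase, rose in them by 1.87, 0.63 and 0.60. Cd47, the signal that restrains phagocytosis, rose with TNF by 1.07 ± 0.0828 and differed by -0.42 with GM-CSF and -0.06 with LPS. Its receptor gene Sirpa fell by 0.63 with TNF, 0.72 with GM-CSF and 0.93 with LPS. In brain tissue 2 of 12 rose (3.18% of all genes were called), Rac2 by 1.31 and Dock2 by 0.76, and Dock2 fell by 0.59 with TNF.

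Of the digestion and lipid efflux genes, 2 of 19 were called with TNF, 4 of 19 with GM-CSF, 4 of 18 with LPS in adult microglia and 0 of 19 in brain tissue (edgeR), against 20.8%, 10.8%, 27.4% and 3.18% of all genes. Nr1h3, the gene of the sterol sensor LXR alpha, rose by 3.09 ± 0.418 with TNF and fell by 1.45 ± 0.477 with GM-CSF, at levels of at most 16.5 CPM with TNF and 0.941 CPM with GM-CSF. Pparg, a fatty acid-sensing nuclear receptor, rose by 3.28 ± 0.457 with GM-CSF, from 1.58 ± 0.899 to 15.6 ± 5.27 CPM (SD, n = 9 each). The efflux transporter genes Abca7 and Abca1 rose by 0.90 and 0.73 with LPS in adult microglia.

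**Figure D5:**
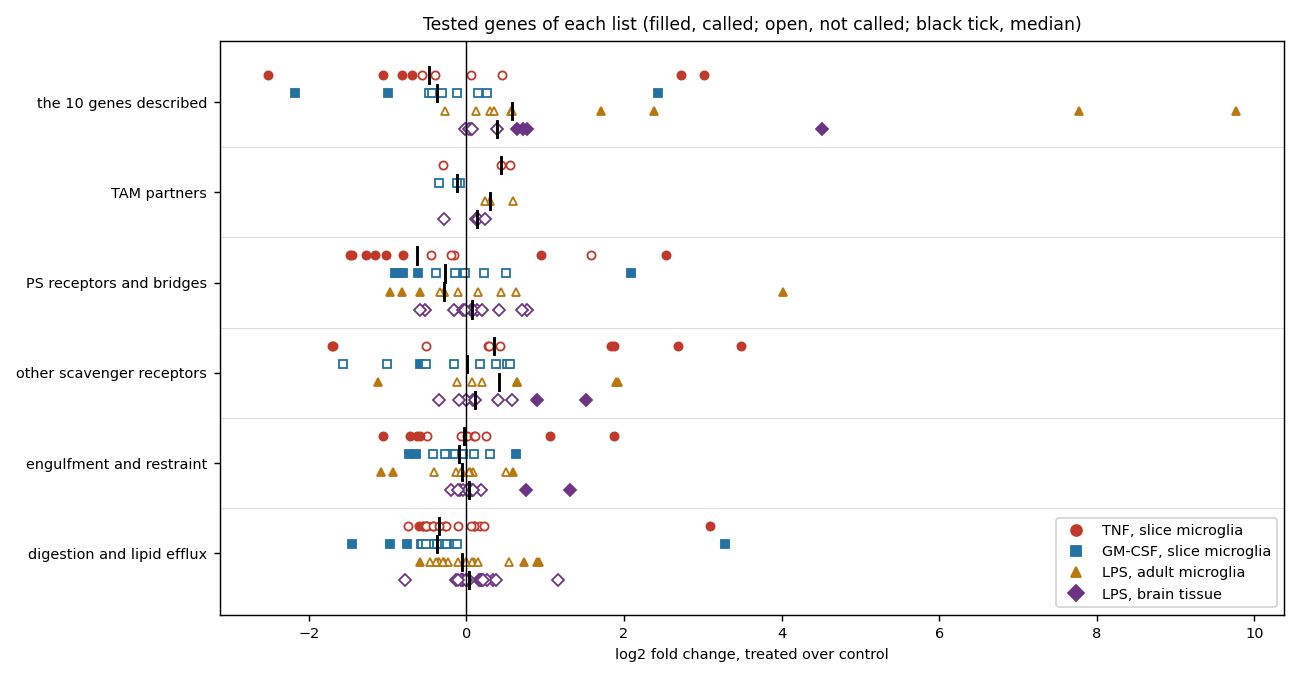
Log2 fold change (horizontal axis) of every tested gene of the 10 described here and of the 5 other lists (vertical axis), after TNF or GM-CSF in slice microglia and after LPS in adult microglia or brain tissue. Filled symbols are called, open symbols are not, and black ticks are list medians. The median of the phosphatidylserine receptors and bridges lies at -0.62 after TNF and that of the other scavenger receptors at 0.36.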

How the data were processed

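RNA-seq was measured in 45 libraries of 7 groups. The deposited slice table holds counts per gene, for which the submitters' processing notes name STAR 2.7.0a and featureCounts from Subread 1.6.4. The adult microglia and brain tables hold expected counts as deposited by the authors, rounded here to whole numbers, with aligner and counter not given in the sources used here. The build was mm10 throughout. No table holds unassigned per-sample columns, and the 92 spike-in rows held 0 counts.

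Each table was fitted separately with edgeR 4.0.16 (R 4.3.3), with TMM scaling, genes kept by filterByExpr (minimum count 10, minimum total 15), a robust quasi-likelihood fit per group, and Benjamini-Hochberg adjustment over all genes tested. Slice groups shared 1 fit. The difference of LPS effects was an interaction over the adult microglia and brain tables. A call needed an adjusted p under 0.05 and a fold change over 1.5, and log2 levels used a prior count of 2. Scripts were first tested on simulated data with known changes. The alternatives were other scalings, filters and samples in the fit, DESeq2 1.42.0, title-code and replicate blocks, subsets by title code, and each library left out (adult data). Intervals on counts are at 95% and cover counting error only, as do limits of 3 counts. The members, lists and motifs were chosen with earlier results of these data known. The genes named from the other lists were the called genes with the largest changes in each comparison, up to 3 per list, except that 1 item is not reported here, and the like genes were the closest 3 for each member. Figures were drawn with matplotlib 3.10.9.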

Additional observations from a re-analysis of the deposited data

Results flagged for a closer look

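The highest or lowest library lay far from the rest of its group in 4 of the 58 combinations of gene and group that were examined (the gap to the nearest library as a share of the group's range), and chance gives about 1 in 20. Mertk was at 180.8 CPM in GM-CSF slice replicate 5, with the next library at 247.3 CPM. Marco was at 41.83 CPM in medium slice replicate 7, a library with title code 2B, with the next library at 16.54 CPM. The other 2 were at the limit of counting. Msr1 was at 0.194 CPM (2 counts) in untreated brain replicate 2 against 0.104 CPM in the next library, and Marco was at 0.144 CPM (2 counts) in PBS microglia replicate 1 against 0 in the others.

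The LPS effect differed between adult microglia and brain tissue at an adjusted p under 0.05 (edgeR interaction, no fold limit) for 6 of the 9 genes tested. Over all genes 5136 of 16676 differed at that threshold. The difference of microglia minus brain tissue was 1.71 for Axl, 2.35 for Cd36 and 0.51 for Gas6. It was -0.67 for Mertk, -0.48 for Pros1 and -0.53 for Cd68. Kit, kind of control and tissue cannot be told apart in these differences.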

How the results depend on the processing

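Of 839 recomputed values of single genes, 791 kept their direction and their side of the call limit, 6 lost the call, 31 gained it and 11 changed sign. The sign changed only for values near 0: Cd36 after TNF (-0.0117 with total counts and -0.0112 with the replicate block), Cd68 between TNF and GM-CSF (-0.14 with total counts and -0.0663 within 2A and 2B), and, when single libraries were left out, Cd36 (-0.15 to 0.28) and Axl (-0.0621 to 0.0118) in brain tissue. The values without single libraries that changed sign were -0.15, -0.02, -0.04, -0.13 and -0.02 for Cd36, and 0.01 and 0.00 for Axl. With no fold limit, 4476 genes were called for TNF, 2892 for GM-CSF and 3486 between the cytokines, each of 11313 tested. The calls were 6703 of 12987 for LPS in adult microglia, 1533 of 15083 in brain tissue and 5136 of 16676 for the difference of LPS effects. Among the 10 genes they were 8 for GM-CSF, 9 for adult LPS and 6 for the difference. The 2A and 2B libraries alone gave 785 calls for GM-CSF. Leaving out single libraries gave 3373 to 4044 genes for adult LPS, 412 to 543 for brain tissue and 3116 to 3663 for the difference. Slice samples with the same replicate number deviated together weakly, with correlations of 0.0412 to 0.184 for TNF and 0.0168 to 0.111 for GM-CSF. Of these pairs 4 of 9 and 2 of 9 were above 0.1, against 0 of 4 in the adult data. The fits with the replicate block called 2423 genes for TNF, 1258 for GM-CSF, 1828 between the cytokines, 3452 for adult LPS and 448 for brain tissue, with 6, 3, 4, 4 and 4 of the 10 genes called. With a minimum count of 30, Cd36 in adult microglia and Msr1 in brain tissue were not tested. Depth limits Cd36, Msr1 and Marco in the adult controls and the brain.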

Other observations

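Within treatments, some of the 10 genes varied together across the 29 slice libraries. These are descriptions over libraries that share title codes. The correlation of log2 levels between Pros1 and Scarb1 was 0.739 within treatments and 0.545 within treatments and title codes, and that between Gas6 and Pros1 was 0.72 and 0.685. Between Cd36 and Msr1 it was 0.736 within treatments and 0.307 once title codes were also removed. Between Cd36 and Marco it was 0.582 and 0.0147.

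The ratio of Msr1 to Cd36 per kilobase was 0.676 ± 0.129 in medium slices (SD, n = 9), 4.39 ± 0.693 with TNF (SD, n = 11) and 3.40 ± 0.659 with GM-CSF (SD, n = 9). In adult microglia it was 3.39 ± 1.06 with PBS and 140 ± 68.3 with LPS (SD, n = 4 each). Cd36 held only 24 and 123 counts in total in these 2 groups.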
